A study of Homo sapiens with 18 samples.

Results

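The transcriptome of GPS2 knockout cells treated with the AKT inhibitor MK2206 was set against that of untreated parental MDA-MB-231 cells (MB231-WT), a triple negative breast cancer line, to ask what of the knockout state is still seen when AKT is inhibited. The members were the 6 libraries whose labels name a knockout pool with MK, 3 of MB231-KO1+MK and 3 of MB231-KO2+MK, and they were compared with the 3 libraries labelled MB231-WT, so that 9 of the 18 libraries of the series entered this contrast. Each treated pool was a group of its own in the fit, and the mean of both was set against WT. The untreated libraries of KO1 and KO2, 3 of each, gave the level without the drug. Below, before and after the drug mean the untreated and the treated libraries, which are separate samples. The labels name no vehicle for the untreated libraries, so handling during treatment cannot be told apart from MK2206.

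KO1 and KO2 were made by lentiviral delivery of Cas9 with different sets of guides against exons 2 and 6 of GPS2, selected with puromycin, and each is a mixed pool, since no clone was picked from it. The labels name no construct for MB231-WT cells, and a transduced and selected control without a knockout was not analysed here. KO1+MK and KO2+MK are the same pools after 10 µM MK2206 for 4 h, and all groups shared the same medium. A WT group given MK2206 was not analysed here either, so within the contrast of treated pools with WT the knockout and the drug cannot be told apart. Nothing in the labels places the 3 replicates of a group in separate cultures, and p-values measure only the spread between these libraries.

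GPS2 is a small subunit of the NCoR/SMRT corepressor complex and an inhibitor of the ubiquitin-conjugating enzyme UBC13, which builds the K63-linked chains that help to activate AKT. Active AKT phosphorylates FOXO transcription factors and keeps them out of the nucleus, and it feeds growth signals to mTORC1, ribosome production and the cell cycle. MK2206 is an allosteric inhibitor that keeps AKT from being activated, and release of FOXO factors and of feedback on receptor signalling are its known consequences in many cells.

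GPS2 itself (ENSG00000132522, chr17:7311324-7315564 of hg38, minus strand) was first checked in every library. Its RNA was at 4.36, 4.85 and 4.38 CPM (counts scaled to the size of the library with TMM factors) in WT, at 4.49, 4.42 and 4.47 CPM in KO1 and at 5.85, 6.03 and 6.08 CPM in KO2. The treated libraries held 5.08, 4.74 and 5.79 CPM in KO1+MK and 6.10, 5.86 and 5.55 CPM in KO2+MK. KO1 lay within the range of WT and all other libraries labelled knockout except KO1+MK replicate 2 were above it, and the difference between the treated pools and WT was 0.28 ± 0.082 on the log2 scale (SE; adjusted p = 0.00439). Small edits in a coding exon need not lower the RNA, counts per gene do not show them, and reads of the overlapping EIF5A could add to or be withheld from the count, so this readout does not check the knockout.

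Sequencing depth moved with the treatment. The 6 treated libraries held 23419198 to 29939536 counts on genes, the WT libraries 33725461 to 37128614 and the untreated knockout libraries 35627965 to 39319910. The mesenchymal and basal markers of MDA-MB-231 were present in every group, at a summed level of 6360 to 6570 CPM in WT and of 5327 to 5948 CPM in the treated pools. Of the 10 markers, 7 were lower at an adjusted p of at most 0.001, led by FN1, PLAU and SNAI2. Of all genes tested, 25.2% were lower by the same measure. CDH1 and PGR were near 0 in every group, and blood cell markers summed to 0.60 to 2.29 CPM over WT and treated libraries. Luminal markers summed to 815 to 868 CPM in WT and 588 to 747 CPM in the treated pools, fibroblast markers to 34.2 to 38.3 and 27.4 to 29.6 CPM, and endothelial markers to 17.4 to 19.2 and 12.4 to 15.5 CPM, and the part of these shifts in the results was not tested. Within the treated pools KO1+MK replicate 1 and KO2+MK replicate 3 stood apart: they were the highest of their 3 libraries for 65.2% and 76.6% of the 768 genes that were higher in treated than in untreated pools. Leaving out both gave 1120 higher and 1741 lower genes for the treated pools against WT, beside 1194 and 1798 with all libraries.

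Of the 15587 genes tested, 1194 were higher and 1798 lower in the treated pools than in WT (7.66% and 11.5%). A call needed a change of 1.5-fold or more with an adjusted p no greater than 0.001 by edgeR's quasi-likelihood test with Benjamini-Hochberg adjustment. All 6 treated libraries lay above all 3 WT libraries for 27.9% of the genes and below them for 27.1%. Without a minimum fold the counts were 3911 (25.1%) and 3933 (25.2%), and the median log2 difference over all genes was 0.0087. KO1+MK alone had 892 genes higher (5.72%) and 1357 lower (8.71%) than WT, and KO2+MK had 1442 (9.25%) and 2011 (12.9%). Beside this, and against the same WT libraries, the untreated pools had 825 higher (5.29%) and 1639 lower genes (10.5%). The step from untreated to treated pools, which does not use WT, held 768 higher (4.93%) and 468 lower genes (3%). Of those 468 genes, 138 were annotated as lncRNA, 8.78% of the lncRNA genes tested, against 289 protein-coding genes, 2.28% of theirs. With every library thinned to the lowest total, the treated pools had 1140 higher and 1721 lower genes than WT.

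The deepest falls against WT, by the rule used to name genes, were those of SPINT1, DHRS3, CD74, IL2RB, ELF3 and ASB2, which were also low in the untreated pools. SPINT1 (chr15:40844018-40858207), a membrane-bound inhibitor of the proteases matriptase and HGF activator, was at 9.13, 8.06 and 9.61 CPM in WT, at 0.908, 0.993 and 1.16 CPM in KO1+MK and at 0.10, 0.0357 and 0.166 CPM in KO2+MK. The log2 difference was -4.76 ± 0.16 (SE; adjusted p = 1.11e-15), beside -5.13 ± 0.16 in the untreated pools, and the step between untreated and treated did not pass the test (0.37 ± 0.32, adjusted p = 0.366). DHRS3 (chr1:12567910-12618210), which reduces retinaldehyde to retinol, was at 2.50, 3.21 and 3.66 CPM in WT and at most at 0.413 CPM in a treated library, a log2 difference of -4.63 ± 0.24. Neither gene had a treated library that overlapped WT, which the rule used to name them required.

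KO2+MK held so few reads of these genes that counting error is wide. SPINT1 had 3, 1 and 5 counts there, or 1.14% of the WT level with a 95% counting interval of 0.521% to 2.18%. DHRS3 had 2, 1 and 1 counts, or 1.45% of WT with an interval of 0.392% to 3.74%. Intervals of this kind cover sampling of reads only.

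CD74, the invariant chain of MHC class II and a receptor for MIF, fell from 5.47, 6.02 and 6.54 CPM in WT to between 0.199 and 0.825 CPM in the treated libraries, a log2 difference of -3.81 ± 0.15 beside -3.78 ± 0.14 in the untreated pools. IL2RB, the beta chain of the IL-2 receptor, was at 3.23 to 3.57 CPM in WT and at 0.0996 to 0.908 CPM under MK2206 (-3.48 ± 0.23). For both the step from untreated to treated was not called, at -0.029 ± 0.19 and -0.40 ± 0.31. ELF3, an epithelial ETS factor, went on falling: its level was 6.86, 7.43 and 7.04 CPM in WT, 0.653 to 2.90 CPM in the untreated pools and 0.299 to 1.44 CPM in the treated pools, with a step of -1.21 ± 0.18 (adjusted p = 7.05e-06) that was not called with the pools merged into 1 group (adjusted p = 0.0261). ASB2, a substrate adaptor of ubiquitin ligases, ended at -3.41 ± 0.20 against WT, with a step of -0.89 ± 0.24 that missed the threshold (adjusted p = 0.00311).

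Among genes whose libraries in both untreated pools lay above WT, those with the largest rises before the drug, UCA1, MAGEA3 and ZNF114, were also above WT under MK2206. UCA1 (chr19:15828206-15836328), a long noncoding RNA first described in urothelial cancer, was at 12.3, 10.9 and 11.2 CPM in WT. It stood at 47.3, 53.2 and 54.8 CPM in KO1+MK and at 77.4, 73.0 and 71.7 CPM in KO2+MK, 5.41-fold above WT as the mean of both pools (log2 2.44 ± 0.081, adjusted p = 7.70e-16). Before treatment the difference was 2.88 ± 0.080, and the step from untreated to treated was -0.44 ± 0.052 (adjusted p = 2.26e-07). All 6 treated libraries lay above WT.

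ZNF114, a zinc finger protein gene, was also above WT in both states, at 18.0, 21.5 and 19.4 CPM in WT and 56.4 to 109.6 CPM in the treated libraries (2.02 ± 0.081 beside 2.33 ± 0.080 untreated). MAGEA3, a cancer-testis antigen on the X chromosome, was at 2.53 to 2.79 CPM in WT, at 6.89 to 7.32 CPM in KO1+MK and at 21.6 to 23.4 CPM in KO2+MK. Its log2 difference was 2.27 ± 0.072 beside 2.40 ± 0.070 untreated, and the step was not called (-0.13 ± 0.045, adjusted p = 0.0147). With the pools merged into 1 group MAGEA3 lost its call against WT (adjusted p = 0.00242), and reads of the near-identical MAGEA6 may have been split with it.

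**Figure D1:**
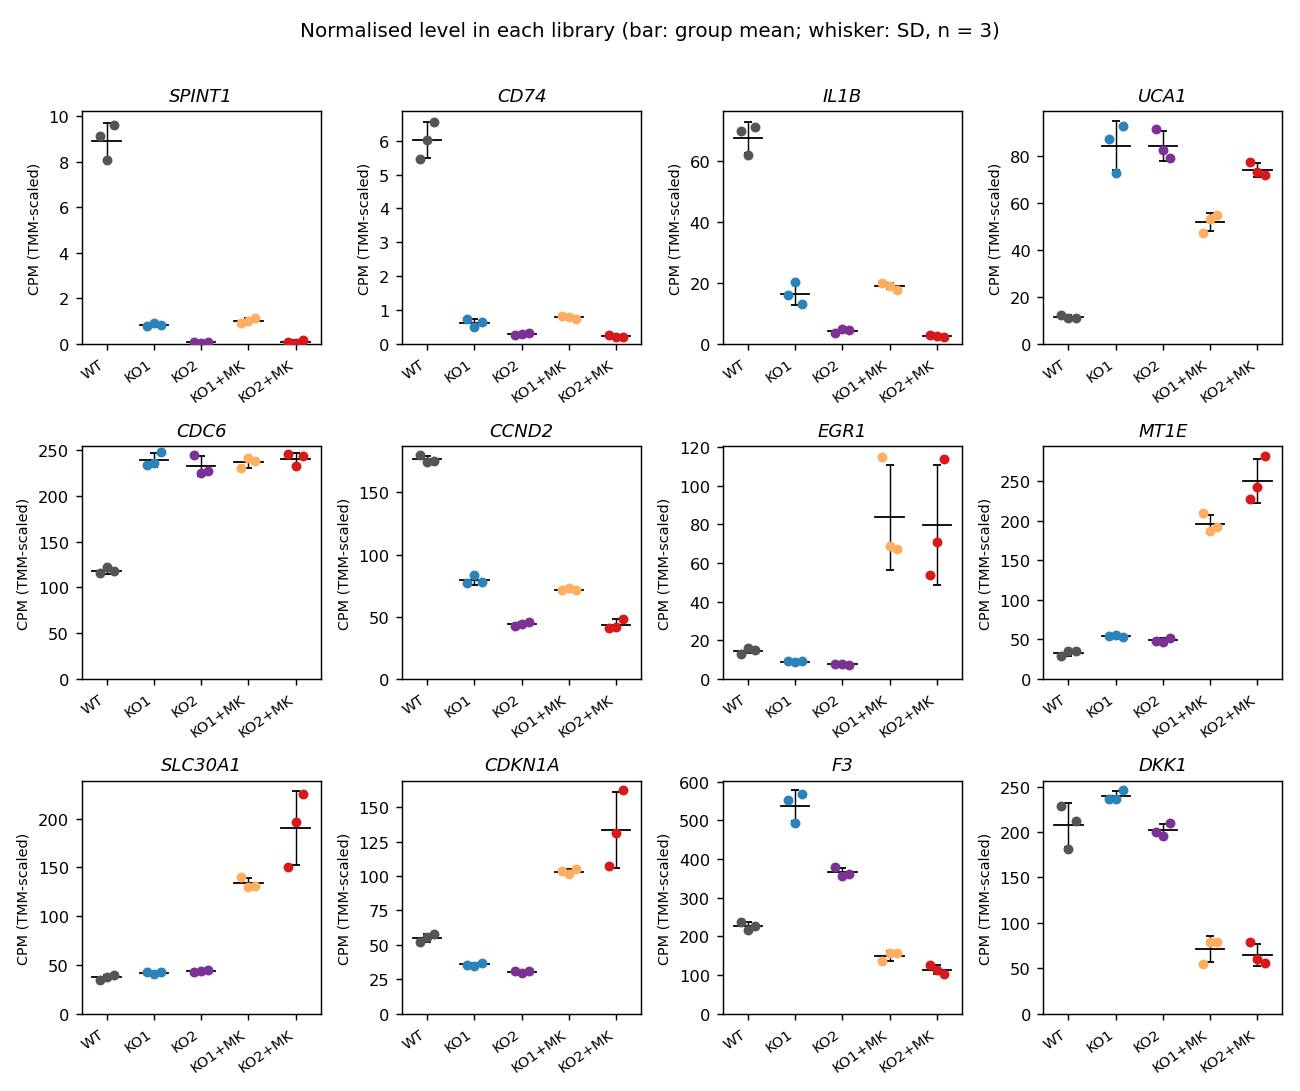
Normalised level (CPM, linear axis from 0) of 12 named genes in each of the 15 libraries, with points for libraries, bars for group means and whiskers for the SD (n = 3). UCA1, CDC6, SPINT1, CD74, IL1B and CCND2 lie on one side of WT with and without MK2206, MT1E, SLC30A1 and DKK1 move with the drug, and the libraries of EGR1, F3 and CDKN1A lie on opposite sides of WT without and with it.

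The largest rises against WT were of genes that were near WT, or far closer to it, before the drug. MGAM (chr7:141907813-142106747), an intestinal alpha-glucosidase, was at 0.233, 0.408 and 0.213 CPM in WT and at 0.142 to 0.287 CPM in the untreated pools. It reached 5.57, 2.98 and 3.58 CPM in KO1+MK and 2.33, 5.14 and 6.41 CPM in KO2+MK, 14.9-fold above WT (3.90 ± 0.34, adjusted p = 1.99e-09) and by a step of 4.36 ± 0.28. MGAM2 lies beside it and shares sequence with it, which the counting may not have resolved. ID4, an inhibitor of basic helix-loop-helix factors, rose to 4.03 to 7.24 CPM from 0.407 to 0.694 CPM in WT (3.08 ± 0.22). Its untreated level of 0.767 to 1.43 CPM was above WT by 0.93 ± 0.26 but did not pass the threshold (adjusted p = 0.00306).

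FAM222A, a gene without a settled function, climbed in both stages, with 1.83, 2.26 and 2.24 CPM in WT, 5.47 to 8.09 CPM in the untreated pools and 15 to 34.5 CPM in the treated pools. Its log2 difference from WT was 1.64 ± 0.14 before and 3.29 ± 0.13 after MK2206. MT1E, a metallothionein that binds zinc and copper, took the same course, at 29.1 to 35.2 CPM in WT, 47.3 to 55.1 CPM untreated and 188 to 282 CPM treated (0.64 ± 0.066, then 2.75 ± 0.068). Reads of the metallothionein family are alike, so part of its count may come from other members. SLC30A1 (chr1:211571568-211579161), the zinc exporter of the plasma membrane, was not called against WT before the drug (0.19 ± 0.085) and stood 4.24-fold above it afterwards. Its level was 35, 38.1 and 39.8 CPM in WT, 40.9 to 44.9 CPM in the untreated pools, 140.0, 129.8 and 131 CPM in KO1+MK and 150.0, 197 and 225 CPM in KO2+MK (2.08 ± 0.086, adjusted p = 1.58e-14).

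By the rule used to name them, 150 genes were called higher than WT under MK2206, called higher than in the untreated pools, and within 1.2-fold of WT without the drug, and 74 genes did the same downwards. ARC, an activity-regulated cytoskeletal gene of neurons, SLC30A1, FOS and SERTAD1 led the former. SERTAD1, which binds CDK4 and E2F partners, was at 8.64, 10.2 and 9.66 CPM in WT and at 26.6 to 39.1 CPM in the treated libraries (1.69 ± 0.076). DKK1, a secreted inhibitor of WNT signalling, led the latter, with 229, 182 and 212 CPM in WT, 196 to 246 CPM untreated, and 54.9, 79.2 and 79.2 CPM in KO1+MK and 78.9, 60.8 and 55.5 CPM in KO2+MK. Its log2 difference from WT was -1.61 ± 0.091 (adjusted p = 2.01e-12), and no treated library overlapped a WT or an untreated library. RGMB-AS1 (-1.57 ± 0.099), ZNF485 (-1.42 ± 0.14) and CCDC8 (-1.40 ± 0.096), the latter a component of the 3M complex, followed. The first is antisense to RGMB, and without a stated strand setting its reads and those of RGMB cannot be told apart.

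Among genes with a symbol and a mean of at least 100 scaled counts, 8 were called 1.5-fold or more below WT before the drug and 1.5-fold or more above it after, and 2 the other way round. F3 (chr1:94529173-94541759), tissue factor, the membrane protein that starts blood clotting, was at 237, 216 and 227 CPM in WT. It was at 553, 494 and 568 CPM in KO1 and 379, 357 and 362 CPM in KO2, and at 135, 157 and 157 CPM in KO1+MK and 126, 112 and 103 CPM in KO2+MK. All untreated libraries were above WT and all treated libraries below it, by 0.97 ± 0.058 and -0.79 ± 0.056, with a step of -1.76 ± 0.047 (adjusted p = 8.25e-17). EDN1, the precursor of the vasoconstrictor endothelin 1, went from 0.61 ± 0.086 above to -0.68 ± 0.094 against WT. UNC5B, a netrin receptor, was at 1.66 to 1.93 CPM in WT, 0.804 to 1.2 CPM untreated and 2.98 to 7.57 CPM treated (-0.96 ± 0.19, then 1.41 ± 0.16), and its untreated call was lost without WT replicate 2 (adjusted p = 0.00135) and with the pools merged into 1 group (0.00388). DRP2, related to dystrophin, ended at 0.94 ± 0.21 (adjusted p = 5.04e-04), a call that was lost without WT replicate 1, 2 or 3 or KO1+MK replicate 2 (adjusted p from 0.00103 to 0.00520), and its untreated call without WT replicate 1 (adjusted p = 0.00156).

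**Figure D2:**
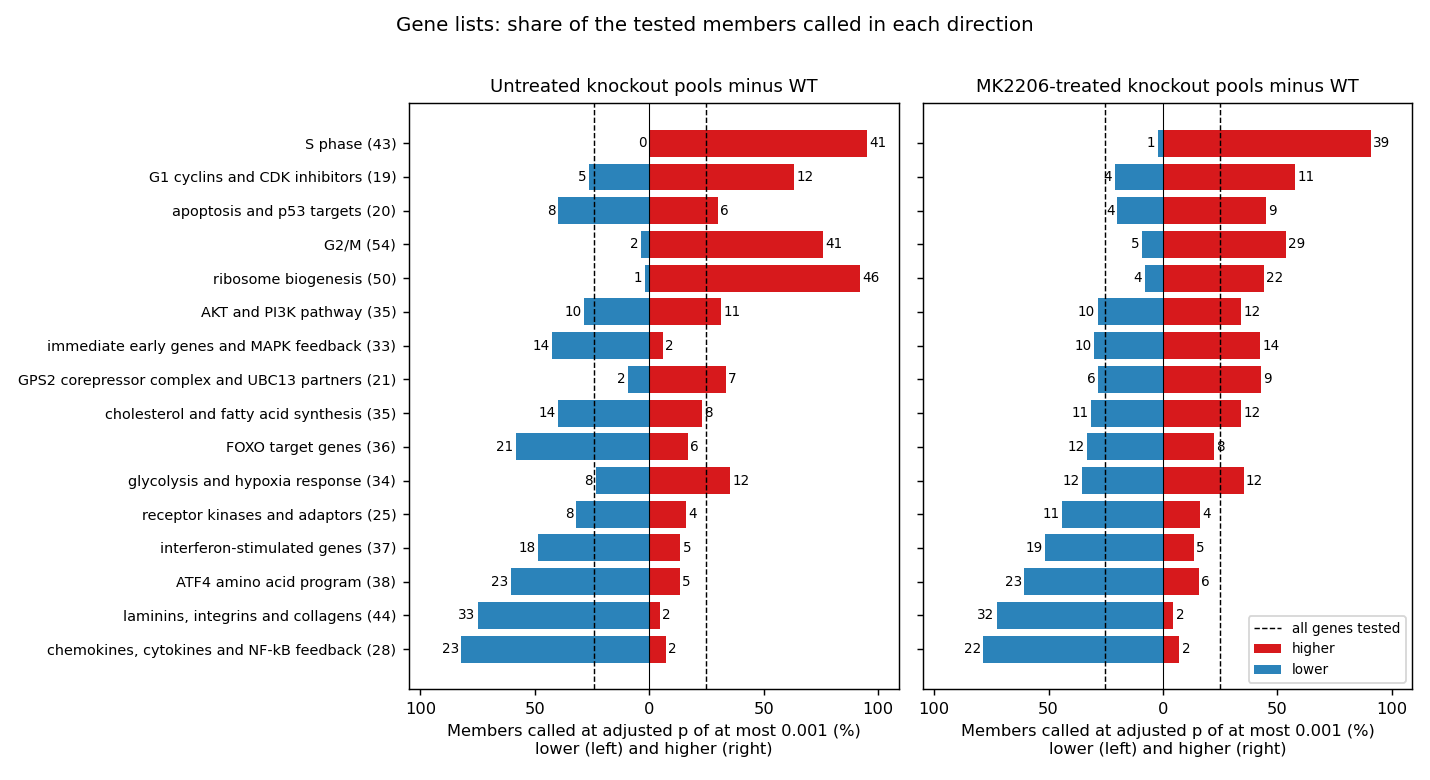
Share of the tested members of each gene list (rows, number tested in brackets) called higher (right) or lower (left) than WT at an adjusted p of at most 0.001, for the untreated pools and for the MK2206-treated pools, with the count at each bar and dashed lines at the share of all genes tested. S phase genes have 39 of 43 members above WT under MK2206 and the cytokine list 22 of 28 below it, while ribosome biogenesis goes from 46 higher members to 22.

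Of all lists, S phase genes had the largest share of members above WT in the treated pools. Of its 43 members, all tested, 39 were higher and 1 lower (0 without WT replicate 1) than WT at an adjusted p of at most 0.001 (90.7% higher, where 25.1% of all genes were), with a median log2 difference of 0.48. The untreated pools had 41 higher and 0 lower, with a median of 0.58, where 24.6% of all genes were higher and 24.3% lower. In the step from untreated to treated, 22 members fell and 7 rose (19.4% and 18.4% of all genes did), with a median of -0.097 beside -0.024 for all genes. The count of higher members against WT lay between 36 and 40 over the 29 alternatives that kept the same test of no change.

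CDC6, which loads the MCM helicase onto replication origins, was at 115, 122 and 118 CPM in WT, and at 230.2, 241 and 238 CPM in KO1+MK and 245, 232 and 243 CPM in KO2+MK, with no overlap. Its log2 difference of 1.01 ± 0.036 (adjusted p = 1.80e-15) was beside 0.99 ± 0.035 untreated, and the step was 0.016 ± 0.027 (adjusted p = 0.621). CCNE2, cyclin E2, which with CDK2 drives entry into S phase, was at 9.48 to 10.6 CPM in WT and moved further up under the drug, to 26.9 to 27.6 CPM in KO1+MK and 34.2 to 41.8 CPM in KO2+MK (1.26 ± 0.063, then 1.65 ± 0.063). The gene overlaps INTS8 and NDUFAF6 on the other strand. RRM2, the small subunit of ribonucleotide reductase, was at 229 to 256 CPM in WT and 415 to 505 CPM in the treated libraries (0.93 ± 0.040). GINS2, of the replicative helicase, was at 17.7 to 19.2 CPM in WT and 28.0 to 36.7 CPM treated (0.78 ± 0.045, beside 1.01 ± 0.045 untreated).

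Other members of this list ended near WT or below it. CDCA7, a zinc finger protein bound to the remodeler HELLS, was at 27.1, 23.2 and 23.9 CPM in WT, 30.6 to 33.4 CPM untreated and 15.9 to 22.1 CPM treated, so that the treated libraries lay below all of WT (-0.37 ± 0.079, adjusted p = 2.85e-04). PRIM1 (-0.026), MCM6 (-0.013) and WDR76 (0.13) did not pass the test. UHRF1, which guides maintenance DNA methylation, was nearer to WT under the drug, at 0.92 ± 0.043 untreated and 0.39 ± 0.043 treated.

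Promoter windows of these genes, 250 bases before to 50 after the transcript start in RefSeq (GRCh38.p14), were read for the E2F site written as TTTCCCGC or TTTGGCGC on either strand. It was in 13 of the 32 windows found for S phase genes (40.6%), in 2 of 45 for G2/M genes (4.44%) and in 631 of all 27305 windows (2.31%). The windows of CDC6 and GINS2 are shown because both are S phase genes that stood above WT in every treated library. The first is chr17:40287629-40287928 on the plus strand and the second chr16:85688905-85689204 on the minus strand, 5′ to 3′ of the gene, with the matched letters in capitals.
CDC6: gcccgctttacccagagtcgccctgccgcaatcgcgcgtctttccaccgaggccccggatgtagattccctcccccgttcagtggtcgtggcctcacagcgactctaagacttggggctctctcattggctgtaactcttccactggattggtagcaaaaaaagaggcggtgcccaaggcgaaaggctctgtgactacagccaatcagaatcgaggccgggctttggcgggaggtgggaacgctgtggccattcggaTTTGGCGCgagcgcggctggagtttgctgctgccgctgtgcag
GINS2: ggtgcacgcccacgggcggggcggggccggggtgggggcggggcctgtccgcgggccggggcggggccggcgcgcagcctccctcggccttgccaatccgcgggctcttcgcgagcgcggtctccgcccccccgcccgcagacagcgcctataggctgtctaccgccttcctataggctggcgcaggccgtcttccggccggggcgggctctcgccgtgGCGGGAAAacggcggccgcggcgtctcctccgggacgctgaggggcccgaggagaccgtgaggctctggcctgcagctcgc
A match is a string of letters and was not tested as a binding site.

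G2/M genes were less uniform. Of 54 members, 29 were higher and 5 lower than WT (median 0.17), beside 41 and 2 untreated (median 0.27), and 19 fell in the step while 4 rose. Over all genes these shares were 25.1% and 25.2% against WT with the drug, 24.6% and 24.3% without it, and 19.4% falling and 18.4% rising in the step, where 53.7% and 9.26% of the G2/M list were higher and lower than WT with the drug. The 2 lower members of the untreated pools were 0 without WT replicate 3. TUBB4B, a beta tubulin with close paralogs, was at 330.0 to 359.5 CPM in WT and 511 to 590.3 CPM treated (0.70 ± 0.040). GAS2L3, a linker of actin and microtubules at cytokinesis, rose in both stages, to 0.36 ± 0.036 untreated and 0.69 ± 0.036 treated. PSRC1, a spindle protein, was at 69.4 to 74.4 CPM in WT and went from 0.19 ± 0.052 to -0.31 ± 0.053. With both pools merged into 1 group the number of higher members was 19.

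Ribosome biogenesis genes, whose products process rRNA and assemble ribosomal subunits in the nucleolus, were closer to WT under the drug than before it. Before the drug 46 of 50 members were higher than WT and 1 lower (median 0.53), where 24.6% of all genes were higher. After it 22 were higher and 4 lower (44% and 8% of the list, beside 25.1% and 25.2% of all genes, median 0.15), and the step itself lowered 46 of the 50 and raised 1 (median -0.32), where 19.4% of all genes fell. UTP4, a subunit of the small subunit processome, was at 62.7, 65.0 and 65.6 CPM in WT, 118 to 128 CPM untreated, 86.7, 97.5 and 92.0 CPM in KO1+MK and 103, 92.6 and 89.5 CPM in KO2+MK (0.93 ± 0.043, then 0.54 ± 0.043, adjusted p = 4.35e-10). NOP56, a core protein of box C/D particles, went from 0.88 ± 0.038 to 0.49 ± 0.037, and POLR1A, the largest subunit of RNA polymerase I, from 0.70 ± 0.038 to 0.52 ± 0.038.

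Other members came back to WT or went under it. RRS1, of the 5S particle, was at 15.4, 17.9 and 16.2 CPM in WT, 27.7 to 30.3 CPM untreated and 12 to 15.4 CPM treated, where its difference from WT was -0.23 ± 0.069 (adjusted p = 0.00600). WDR43 was at 129 to 133 CPM in WT, 190.4 to 231 CPM untreated and 99.0 to 130.2 CPM treated (0.67 ± 0.038, then -0.16 ± 0.037). DDX10, a helicase, was the member farthest below WT, at -0.59 ± 0.039, with 70.6 to 75.8 CPM in KO1+MK and 46.7 to 53 CPM in KO2+MK against 85.9 to 93.5 CPM in WT. MYC, the growth regulator that controls many of these genes, was at 292, 266 and 277 CPM in WT. It was at 318 to 332 CPM in KO1 and 214 to 240.3 CPM in KO2, and at 162 to 204 CPM in KO1+MK and 145 to 182 CPM in KO2+MK, so that every treated library lay below WT (-0.67 ± 0.063, adjusted p = 5.18e-09, beside -0.041 ± 0.063 untreated).

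**Figure D3:**
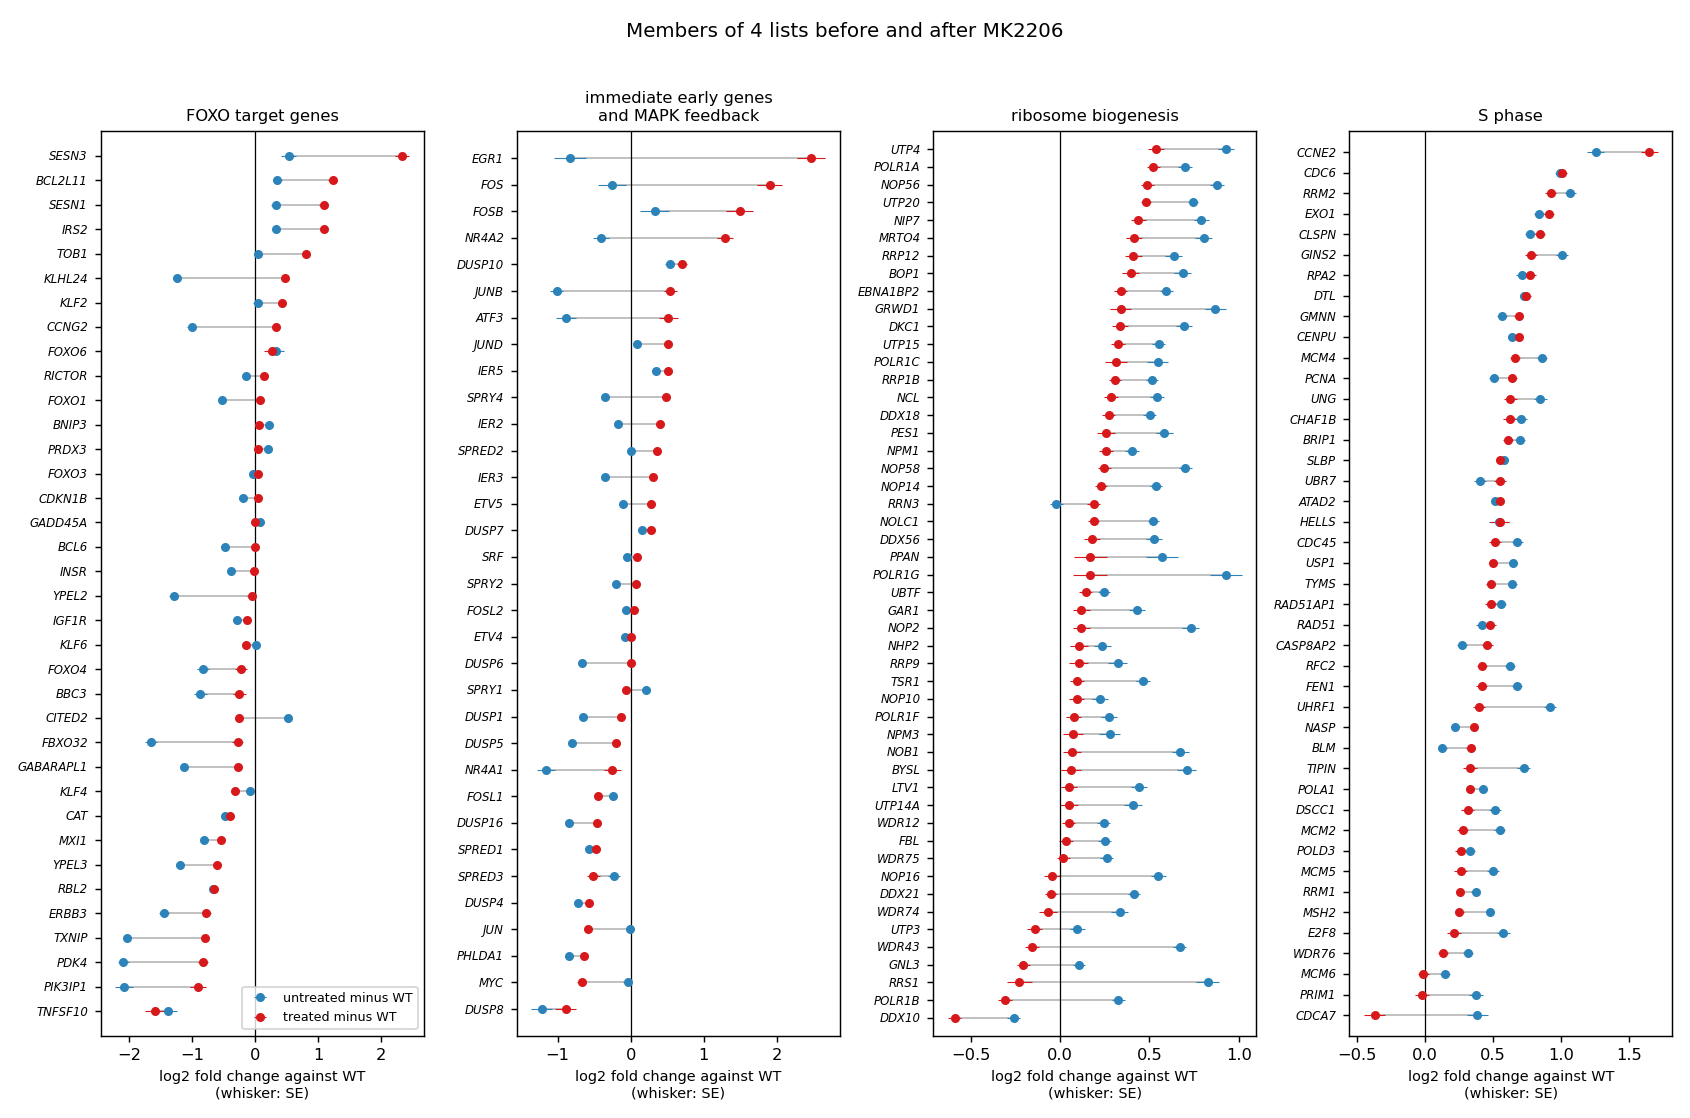
Log2 fold change against WT (x axis, whiskers for the SE) of each tested member of 4 lists (rows) in the untreated pools and in the MK2206-treated pools, joined by a line. Most FOXO targets and immediate early genes shift right, most ribosome biogenesis genes shift left, and S phase genes shift little.

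Among G1 cyclins and CDK inhibitors, 11 of 19 tested members were higher and 4 lower than WT (57.9% and 21.1%, beside 25.1% and 25.2% of all genes). CDKN1A (chr6:36676460-36687337), the CDK inhibitor p21, crossed WT: it was at 52.1, 55.5 and 57.9 CPM in WT, 29.4 to 37.1 CPM untreated, 103, 101 and 105 CPM in KO1+MK and 107, 131 and 162 CPM in KO2+MK. The difference was -0.74 ± 0.080 without and 1.09 ± 0.079 with MK2206, with a step of 1.83 ± 0.065 (adjusted p = 7.74e-15). CCND2, cyclin D2, was lower before and after, at 180.0, 175 and 175 CPM in WT, 71.1 to 73.0 CPM in KO1+MK and 40.6 to 48.5 CPM in KO2+MK (-1.65 ± 0.040), with a step of -0.081 ± 0.036 that was not called. CCND1, cyclin D1, was at 653 to 706 CPM in WT, 773 to 849 CPM untreated and 588 to 646 CPM treated, ending just below WT (0.26 ± 0.034, then -0.14 ± 0.033). CDKN1B, the inhibitor p27 and a FOXO target, was at 34.9 to 38.4 CPM in WT and 35.3 to 43.8 CPM treated, and these overlapped (0.036 ± 0.049, adjusted p = 0.518).

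FOXO target genes, many of them brakes on growth and growth factor signalling, moved up between the untreated and the treated pools. Of 36 members tested, 21 were lower and 6 higher than WT without the drug (median -0.43, beside 24.3% and 24.6% of all genes), and the 6 were 3 without WT replicate 1 or 3. With it 12 were lower and 8 higher (median -0.038), near the 25.2% and 25.1% of all genes, and these were 6 and 5 with the pools merged into 1 group. In the step 25 rose and 4 fell (median 0.53), where 18.4% of all genes rose. The members did not move to one level: some ended far above WT, some near it and some still below.

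Those that ended above WT included a stress sensor, an adaptor and an apoptotic factor. SESN3 (chr11:95165513-95232541), a sestrin that restrains mTORC1, was at 5.85, 5.61 and 6.51 CPM in WT, 5.28 to 6.12 CPM in KO1, 12.5 to 13.7 CPM in KO2, 25.4, 19.3 and 21.4 CPM in KO1+MK and 33.1, 41.5 and 49.0 CPM in KO2+MK (2.33 ± 0.11, adjusted p = 1.81e-13). BCL2L11, the BH3-only protein BIM, was at 16.7, 19.2 and 18.1 CPM in WT and 34.3 to 56.8 CPM treated (1.23 ± 0.073, beside 0.35 ± 0.074 untreated). The gene overlaps MIR4435-2HG, as GINS2 overlaps GSE1, UTP4 overlaps CHTF8 and SNTB2, SKP2 overlaps NADK2, LAMA5 overlaps ADRM1 and ANKRD37 overlaps UFSP2, and without a stated rule for shared reads these counts are uncertain to that extent. IRS2, the insulin receptor substrate, was at 55.5 to 59.1 CPM in WT and 104 to 153 CPM treated (1.09 ± 0.048), and SESN1 at 6.84 to 7.65 and 13.5 to 17.4 CPM (1.09 ± 0.073).

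KLHL24, an adaptor of a cullin ligase, and CCNG2, the atypical cyclin G2, passed from below WT to above it. The former was at 61.3, 63.2 and 63.5 CPM in WT, 21.5 to 30.5 CPM untreated, and 79.5, 73.4 and 75.7 CPM in KO1+MK and 83.4, 100.5 and 112 CPM in KO2+MK (-1.24 ± 0.064, then 0.47 ± 0.063). CCNG2 went from -1.01 ± 0.064 to 0.33 ± 0.063. FBXO32, atrogin 1, was at 29.7 to 34.6 CPM in WT, 9.66 to 11.2 CPM untreated and 20.3 to 36.8 CPM treated, so that its treated libraries overlapped WT (-1.65 ± 0.092, then -0.27 ± 0.088, adjusted p = 0.00863).

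Still lower than WT was TXNIP, an arrestin that limits glucose uptake. It was at 199, 168 and 215 CPM in WT, 40.7 to 54.5 CPM untreated, 115, 115 and 107 CPM in KO1+MK and 97.9, 111 and 121 CPM in KO2+MK, with no overlap between any 2 of these states. Its difference from WT was -2.03 ± 0.061 before and -0.80 ± 0.060 after MK2206 (adjusted p = 1.46e-10). PDK4, which turns off pyruvate dehydrogenase, followed the same path, from -2.09 ± 0.082 to -0.83 ± 0.076, with 9.45 to 11.2 CPM in WT, 1.74 to 3.29 CPM untreated and 4.50 to 7.30 CPM treated. PIK3IP1, a membrane inhibitor of PI3K, went from -2.08 ± 0.14 to -0.91 ± 0.13. TNFSF10, the death ligand TRAIL, did not come back: it was at 3.81 to 4.99 CPM in WT and 0.996 to 2.32 CPM treated (-1.58 ± 0.16), and its step of -0.20 ± 0.15 was not called.

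The forkhead core TGTTTAC, searched on both strands, was in 4 of 36 promoter windows of this list (11.1%: BCL2L11, FOXO4, TXNIP and YPEL3) and in 931 of 27305 windows (3.41%). The windows of TXNIP (chr1:145996530-145996829, minus strand) and BCL2L11 (chr2:111120664-111120963, plus strand) are shown because both genes rose in the step, while ending on opposite sides of WT. Capitals mark the core as GTAAACA, its reverse complement.
TXNIP: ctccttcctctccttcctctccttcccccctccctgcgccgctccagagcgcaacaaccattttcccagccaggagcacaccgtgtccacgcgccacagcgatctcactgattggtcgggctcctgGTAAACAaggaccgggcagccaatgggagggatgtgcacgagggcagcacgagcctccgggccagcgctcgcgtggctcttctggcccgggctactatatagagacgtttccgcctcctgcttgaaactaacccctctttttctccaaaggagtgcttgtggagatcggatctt
BCL2L11: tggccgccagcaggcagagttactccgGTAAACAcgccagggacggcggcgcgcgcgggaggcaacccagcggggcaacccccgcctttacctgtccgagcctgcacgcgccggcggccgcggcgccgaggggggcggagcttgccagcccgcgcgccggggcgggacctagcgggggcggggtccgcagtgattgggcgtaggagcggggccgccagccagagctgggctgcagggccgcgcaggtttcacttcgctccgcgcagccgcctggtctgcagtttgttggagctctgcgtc
Neither window was tested for binding of a FOXO factor.

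Receptor kinases and their adaptors were, as a list, more often lower than higher than WT (11 and 4 of 25 tested, median -0.11), beside 8 and 4 untreated. That is 44% lower and 16% higher, where 25.2% and 25.1% of all genes were, and 24.3% and 24.6% untreated. FGFR3, a receptor of fibroblast growth factors, was at 2.07, 1.25 and 1.68 CPM in WT and 1.43 to 2.27 CPM untreated, and rose to 3.47, 3.01 and 3.61 CPM in KO1+MK and 4.97, 5.86 and 7.17 CPM in KO2+MK (1.43 ± 0.15, adjusted p = 4.03e-08). ERBB3, a partner of other EGF receptors, was still below WT, at -1.45 untreated and -0.77 treated. IGF1R (-0.13) and INSR (-0.017) did not pass the test against WT under MK2206.

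Of the AKT and PI3K pathway, 12 of 35 tested members were higher and 10 lower than WT (34.3% and 28.6%), not far from the 25.1% and 25.2% of all genes. AKT1 was at 133 to 134 CPM in WT and 119.8 to 137 CPM treated, with no call (-0.053 ± 0.041, adjusted p = 0.257), and AKT2 at 87.6 to 89.8 and 90.3 to 99.5 CPM (0.088 ± 0.032, adjusted p = 0.0187).

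The largest changes of this list were those of PIK3R1 and PIK3R3, regulatory subunits that hold and stabilize the catalytic subunits of PI3K, and both rose in both stages, although with the pools merged into 1 group the untreated rise of PIK3R1 was not called (adjusted p = 0.00422). PIK3R1 was at 22.7, 22.0 and 20.4 CPM in WT, 27.7 to 38.6 CPM untreated and 47.7 to 81.9 CPM treated (0.61 ± 0.067, then 1.47 ± 0.067), and PIK3R3 at 9.05 to 9.28, 12.2 to 17.0 and 19.2 to 30.5 CPM (0.70 ± 0.073, then 1.35 ± 0.072). EIF4EBP2, a translation repressor that mTORC1 inactivates, was 2.10-fold above WT (1.07 ± 0.035), with 125 to 139 CPM in WT and 265 to 299 CPM treated.

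Immediate early genes, the transcription factors that growth signals switch on within minutes, and the feedback inhibitors of the MAPK pathway were mostly raised by the step: 23 of 33 members rose and 4 fell (median 0.36), where 18.4% and 19.4% of all genes did. Against WT 14 were higher and 10 lower (42.4% and 30.3%, beside 25.1% and 25.2% of all genes, median 0.076). The untreated pools had 2 and 14 (median -0.25), where 24.6% and 24.3% of all genes were, and the 2 were 4 in the fit without KO1+MK replicate 1. EGR1 (chr5:138465479-138469303), a zinc finger factor, was at 13.1, 15.9 and 14.9 CPM in WT, 8.77 to 9.17 CPM in KO1 and 7.38 to 7.69 CPM in KO2, and at 115, 68.9 and 67.1 CPM in KO1+MK and 53.8, 70.7 and 114 CPM in KO2+MK. The untreated libraries lay below WT, by a difference that missed the threshold (-0.83, adjusted p = 0.00221). All treated libraries were above WT, as the rule for the largest rises required, 5.55-fold on average (2.47 ± 0.20, adjusted p = 3.89e-10). The 2 highest were KO1+MK replicate 1 and KO2+MK replicate 3, the libraries that stood apart on the genes raised in the step. FOS, a partner in AP-1, rose from 3.92 to 5.36 CPM in WT to 13.1 to 26.8 CPM (1.91 ± 0.17), and ARC, which is not on the list, from 0.582 to 0.667 to 2.10 to 9.36 CPM (2.75 ± 0.25).

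The AP-1 and feedback genes did not share a direction. JUNB crossed from below to above WT, with 36.2 to 42.0 CPM in WT, 15.1 to 24.1 CPM untreated and 43.2 to 67.9 CPM treated (-1.01 ± 0.089, then 0.54 ± 0.087), while JUN was at -0.0087 untreated and -0.59 treated. NR4A2, an orphan nuclear receptor, ended at 1.29 ± 0.10. DUSP6, a phosphatase of ERK, was at 254, 279 and 292 CPM in WT, 153 to 202 CPM untreated and 247 to 305 CPM treated, and overlapped WT under the drug (-0.67 ± 0.051, then 0.0014 ± 0.052, adjusted p = 0.982). DUSP4, DUSP8 and PHLDA1 were still lower than WT, at -0.58, -0.89 and -0.64.

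The CArG box, the site of serum response factor, was in 2 of 27 promoter windows of this list (7.41%: EGR1 and SRF) and in 351 of 27305 windows (1.29%). The window of EGR1 (chr5:138465229-138465528, plus strand) is shown as that of the list member with the largest rise, against WT and in the step, with its 2 matches in capitals.
EGR1: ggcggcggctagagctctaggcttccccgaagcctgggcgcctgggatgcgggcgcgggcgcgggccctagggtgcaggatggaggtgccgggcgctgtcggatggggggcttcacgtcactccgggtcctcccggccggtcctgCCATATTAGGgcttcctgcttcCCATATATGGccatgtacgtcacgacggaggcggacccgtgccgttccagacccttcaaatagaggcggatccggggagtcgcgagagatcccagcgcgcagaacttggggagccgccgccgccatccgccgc

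Of the pathway lists, leaving aside the short lists of cell type markers, chemokines, cytokines and NF-kB feedback genes had the lowest median against WT, before and after the drug. Of 28 members tested, 22 were lower and 2 higher than WT (78.6% lower, where 25.2% of all genes were), with a median of -1.01 beside -0.94 untreated, and in the step 7 rose and 6 fell (25% and 21.4%, near the 18.4% and 19.4% of all genes). IL1B, the cytokine interleukin 1 beta, was at 70.0, 61.9 and 71.3 CPM in WT, 20.1, 19.2 and 17.8 CPM in KO1+MK and 3.07, 2.75 and 2.32 CPM in KO2+MK. Its log2 difference was -3.24 ± 0.095 (adjusted p = 1.09e-16), beside -2.98 ± 0.088 untreated. IL1A went the same way (-2.91 ± 0.12). ICAM1, an adhesion receptor for leukocytes, was at 104 to 110.0 CPM in WT, 59.3 to 59.8 CPM in KO1+MK and 9.44 to 10.4 CPM in KO2+MK (-2.14 ± 0.057), and CSF2, the growth factor GM-CSF, at 29.4 to 33.1, 11 to 12.5 and 1.33 to 1.77 CPM (-2.87 ± 0.095).

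CXCL8, interleukin 8, was at 98.2, 79.8 and 92.1 CPM in WT, 67.4, 72.9 and 70.8 CPM in KO1+MK and 10.7, 11.8 and 13.4 CPM in KO2+MK. Taken alone, KO1+MK had 14 members lower than WT with a median of -0.34, where 19.7% of all genes were lower, and KO2+MK had 23 with a median of -1.91, where 24.4% were. Between the pools 22 members were higher in KO1+MK and 1 in KO2+MK, without a minimum fold, beside 5.04% and 3.93% of all genes. With the pools merged into 1 group, so that their difference counted as spread, 6 members were called lower. The members called above WT were NFKBIB, an inhibitor of NF-kB (0.54 ± 0.054), and IL11, a cytokine of the IL6 family. IL11 was at 87.7, 79.2 and 86.4 CPM in WT, 96.4 to 129.8 CPM untreated, 235, 242 and 242 CPM in KO1+MK and 368, 369 and 340.4 CPM in KO2+MK (1.80 ± 0.042, adjusted p = 7.58e-18).

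Interferon-stimulated genes were also lower more often than higher (19 and 5 of 37 tested, median -0.27, beside 18 and 5 untreated), with 5 up and 9 down in the step. With the drug 51.4% of the list were lower and 13.5% higher, where 25.2% and 25.1% of all genes were, and 24.3% and 24.6% untreated. The step counts were near the 18.4% of all genes that rose and the 19.4% that fell. The 5 higher members were 2 without WT replicate 1 and 3 without WT replicate 2 or 3, and the 5 of the untreated pools were 3 without WT replicate 1 or 3. BST2, tetherin, was at 15.6, 16.3 and 16.2 CPM in WT, 4.83 to 6.20 CPM in KO1+MK and 1.83 to 2.07 CPM in KO2+MK (-2.31 ± 0.079), and XAF1 at 5.10 to 7.13 and 1.57 to 2.43 CPM (-1.59 ± 0.12). IRF7, a factor that drives interferon genes, was above WT by 0.44.

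Laminins, integrins and collagens, which build the basement membrane and hold cells to it, were lower than WT for 32 of 44 members tested and higher for 2 (median -0.54), beside 33 and 2 untreated (median -0.50). Lower members were 72.7% of the list, where 25.2% of all genes were lower, and higher members 4.55%, where 25.1% were higher. Untreated, 24.3% of all genes were lower and 24.6% higher. Without WT replicate 3 the 2 higher members with the drug were 1. COL9A2, a chain of type IX collagen, was at 6.72 to 6.94 CPM in WT and 1.14 to 2.64 CPM treated (-1.84 ± 0.11). ITGB3, the beta 3 integrin, was at 7.45 to 10.5 CPM in WT, 3.64 to 4.60 CPM in KO1+MK and 1.53 to 1.89 CPM in KO2+MK (-1.82 ± 0.12). LAMA5, the laminin alpha 5 chain, fell further with the drug, at 727, 697 and 665 CPM in WT, 384 to 465 CPM untreated and 238 to 348 CPM treated (-0.71 ± 0.046, then -1.23 ± 0.046). ITGB4, of hemidesmosomes, was lower in KO1+MK (22.1 to 22.3 CPM) than in KO2+MK (41.8 to 44.9 CPM), against 73.7 to 78.9 CPM in WT. The members called above WT were COL7A1 (0.31 ± 0.064) and LAMA1 (0.36 ± 0.056), and LAMA1 had treated libraries within the range of WT.

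Metabolic programs split. The ATF4 amino acid program, which makes and imports amino acids and charges tRNAs, was lower for 23 of 38 members tested and higher for 6 (60.5% and 15.8%, beside 25.2% and 25.1% of all genes, median -0.34). Untreated, 23 members were lower and 5 higher, where 24.3% and 24.6% of all genes were. With the pools merged into 1 group, 14 members were lower with the drug and 12 without it. ASNS, asparagine synthetase, was at 139, 122 and 129.7 CPM in WT, 61.9 to 71.5 CPM in KO1+MK and 39.7 to 43.2 CPM in KO2+MK (-1.31 ± 0.099), and DDIT4, an inhibitor of mTORC1, at 68.4 to 85.8 and 32.7 to 40.5 CPM (-1.05 ± 0.070, beside -1.56 ± 0.070 untreated). SESN2, a sestrin, passed above WT, at 12.9 to 13.1 CPM in WT and 20.4 to 28.7 CPM treated (0.90 ± 0.091). SLC7A11, the cystine importer, was above WT in both states (0.73 ± 0.039, then 0.61 ± 0.039).

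Cholesterol and fatty acid genes had 12 members higher and 11 lower than WT of 35 (34.3% and 31.4%, not far from the 25.1% and 25.2% of all genes, median 0.017). In the step 14 rose, where 18.4% of all genes did, and 1 fell, a count of 0 to 2 over the fits that left out a library. INSIG1, which holds SREBP factors in the endoplasmic reticulum, crossed WT, at 346, 338 and 361 CPM in WT, 209 to 238 CPM untreated and 465 to 566 CPM treated (-0.64 ± 0.043, then 0.54 ± 0.044). IDI1, an isomerase of the mevalonate pathway, was at 69.1 to 75.6 CPM in WT and 116 to 193 CPM treated (0.98 ± 0.058).

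Glycolysis and hypoxia genes had 12 members higher and 12 lower of 34, and all genes were as evenly divided (25.1% and 25.2%). With the pools merged into 1 group, 7 members were higher and 6 lower. VEGFA, the endothelial growth factor, was lowest, at 199, 235 and 218 CPM in WT, 76.9 to 113 CPM untreated and 57.1 to 82.7 CPM treated (-1.22 ± 0.045, then -1.66 ± 0.046). The glycolytic enzymes GAPDH and LDHA were above WT by 0.39 and 0.25, whereas HK2 (-0.39) and SLC2A1 (-0.24), the first kinase and a glucose transporter, were below it. ANKRD37, a hypoxia target of low level at 1.71 to 2.09 CPM in WT and 2.52 to 3.65 CPM treated, was called at 0.69 ± 0.13, but not without WT replicate 3 (adjusted p = 0.00131).

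Of the apoptosis and p53 targets, 9 of 20 were higher and 4 lower than WT (median 0.20), beside 6 and 8 untreated (median -0.23), and 11 rose and 3 fell in the step. The shares of all genes were 25.1% and 25.2% with the drug, 24.6% and 24.3% untreated, and 18.4% and 19.4% in the step. The 4 lower members were 2 without WT replicate 1 or 3, KO1+MK replicate 2 or KO2+MK replicate 2. MDA-MB-231 cells carry a mutant p53. TP53INP1, a promoter of autophagy and cell death, was at 8.90 to 12.5 CPM in WT and 15 to 20.8 CPM treated (0.70 ± 0.085). GDF15, a stress cytokine, was still below WT, at 74.7 to 81.2 CPM in WT and 29.4 to 62.7 CPM treated (-0.87 ± 0.077, beside -1.57 ± 0.078 untreated).

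In the list of the corepressor complex and UBC13 partners 9 of 21 tested were higher and 6 lower than WT (42.9% and 28.6%, beside 25.1% and 25.2% of all genes, median 0.076). The largest differences were those of SKP2, an F-box protein of the ligase that degrades p27 (0.65 ± 0.030), and CORO2A, a coronin of the NCoR complex (-0.47 ± 0.046). SKP2 was at 56.8 to 58.7 CPM in WT and 82.6 to 97.5 CPM treated. CORO2A was at 33.8 to 34.9 and 23.4 to 25.7 CPM. Before the drug the differences were of like size (0.71 ± 0.030 for SKP2 and -0.51 ± 0.046 for CORO2A).

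**Figure D4:**
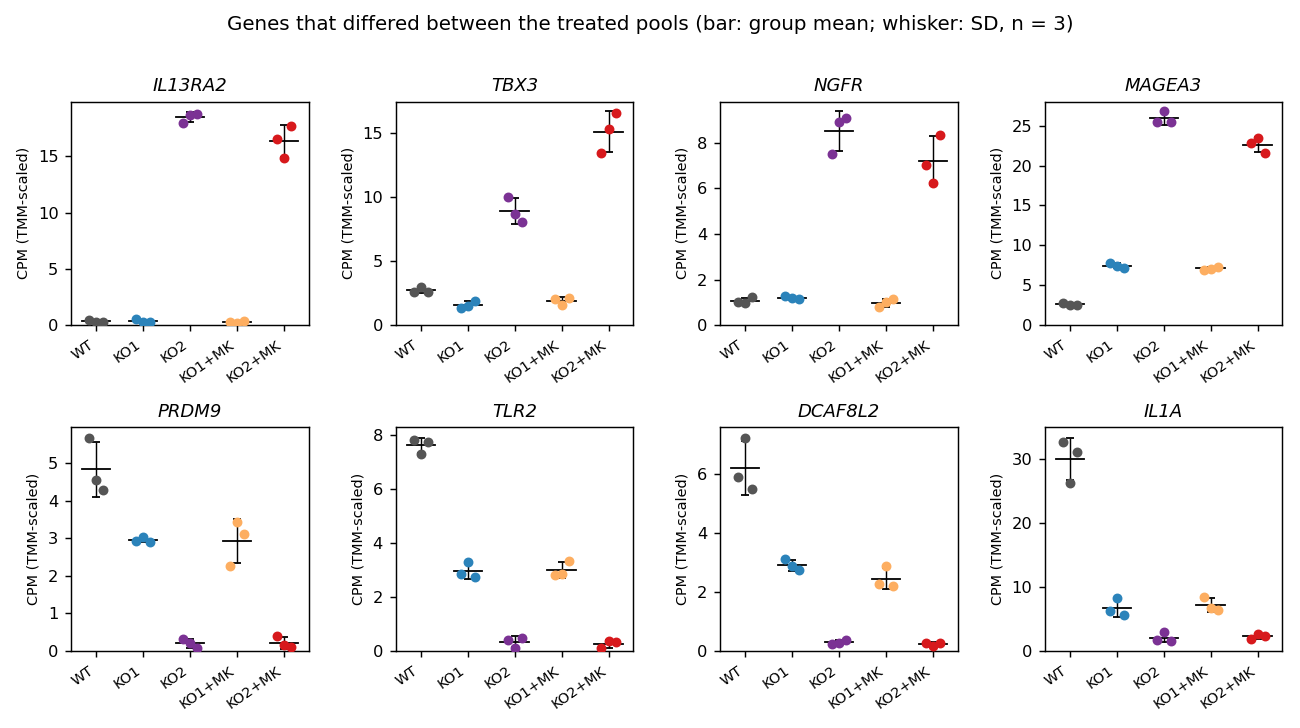
Normalised level (CPM, linear axis from 0) in each library of 8 genes that differed between the treated pools, with points for libraries, bars for group means and whiskers for the SD (n = 3). IL13RA2, TBX3, NGFR and MAGEA3 are higher in KO2+MK, and PRDM9, TLR2, DCAF8L2 and IL1A are higher in KO1+MK.

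The treated pools also differed from each other, by 272 genes higher in KO1+MK (1.75%) and 97 higher in KO2+MK (0.622%). The genes named here lay apart in the same direction before the drug, with a mean in KO1 and KO2 of 0.337 and 18.5 CPM for IL13RA2, 1.58 and 8.90 CPM for TBX3, 1.19 and 8.51 CPM for NGFR, 2.96 and 0.199 CPM for PRDM9, 2.95 and 0.329 CPM for TLR2, and 2.91 and 0.296 CPM for DCAF8L2. Whether the drug changed these differences was not tested. IL13RA2 (chrX:115003975-115019977), a decoy receptor for interleukin 13, was at 0.465, 0.272 and 0.267 CPM in WT, at 0.248, 0.147 and 0.341 CPM in KO1+MK and at 16.5, 14.9 and 17.7 CPM in KO2+MK, a difference between the pools of -6.03 ± 0.18 on the log2 scale (KO1+MK minus KO2+MK, adjusted p = 2.01e-15). TBX3, a T-box repressor, was at 1.54 to 2.11 CPM in KO1+MK and 13.4 to 16.6 CPM in KO2+MK, against 2.56 to 2.99 CPM in WT (-2.98 ± 0.14). NGFR, the p75 neurotrophin receptor, was at 0.784 to 1.12 and 6.25 to 8.37 CPM (-2.88 ± 0.16). The averaged contrast thus called all these genes higher than WT, although KO1+MK libraries overlapped WT for IL13RA2 and NGFR and lay below it for TBX3.

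In the other direction PRDM9, a meiotic histone methyltransferase, was at 2.27 to 3.42 CPM in KO1+MK and 0.0996 to 0.400 CPM in KO2+MK, against 4.30 to 5.67 CPM in WT (3.75 ± 0.32 between the pools). TLR2, a receptor for bacterial lipoproteins, was at 2.81 to 3.34 and 0.10 to 0.357 CPM (3.50 ± 0.30), against 7.30 to 7.80 CPM in WT, and DCAF8L2 at 2.21 to 2.87 and 0.179 to 0.267 CPM (3.34 ± 0.25). TLR2 and DCAF8L2 were called lower than WT in both pools, whereas PRDM9 missed the threshold in KO1+MK (-0.71 ± 0.19, adjusted p = 0.00250), where its libraries lay below WT. With the pools merged into 1 group none of these 6 genes kept its call against WT (adjusted p from 0.0135 to 0.0953).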

How the data were processed

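RNA of MDA-MB-231 cells was sequenced as paired-end reads after depletion of ribosomal RNA, as 1 pool in 2 runs. The authors trimmed the reads with Trim Galore, aligned them to hg38 with HISAT2 and deposited raw counts per Ensembl gene made with featureCounts, without normalization or filter. Versions, annotation and the rule for strand and shared reads are not given in the sources used here. A separate table of gene names gave a symbol to 41445 gene identifiers, and GENCODE release 44 gave a position to 56948.

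The test covered the 15587 genes that reached 1 CPM in 3 or more of the 18 libraries. In no library did 15061 genes have a count. The 15 libraries of WT, KO1, KO2, KO1+MK and KO2+MK were fitted together with edgeR 4.0.16 (TMM, quasi-likelihood test, two-sided, Benjamini-Hochberg adjustment over all genes tested) in R 4.3.3, with limma 3.58.1, and pools were averaged as contrasts. The SE was the log2 fold change divided by the square root of F. Calls needed a change of 1.5-fold or more with an adjusted p no greater than 0.001, and list members the same p without a minimum fold. CPM values are scaled by TMM factors. A value of 0 allows up to 3 counts, and intervals on counts cover counting error only. Counting error did not account for the spread of replicates, whose chi-square per gene was between 2.26 and 7.76 over 15 pairs.

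Named genes had a symbol and a mean of at least 100 scaled counts in WT or the treated pools. They were (A) the 6 largest called rises and falls of the treated pools against WT without overlap of libraries and called in both pools, (B) the 3 largest each way of the untreated pools without overlap of either pool with WT, (C) the 4 largest each way called against WT and against the untreated pools while the untreated level was within 1.2-fold of WT, (D) up to 2 each way with opposite calls before and after the drug, (E) the 3 largest each way between the treated pools, (F) the 2 largest changes of each list and (G) GPS2, AKT1 and AKT2. Some genes that this rule names are not reported here. Further list members were picked with their values in view. The comparison, the gene lists and the markers were chosen with earlier results of these data known. Promoter windows were taken from RefSeq.

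Alternatives were DESeq2 1.42.0, other scalings and filters, other thresholds with glmTreat among them, the libraries of a comparison alone, pools merged into 1 group, protein-coding genes, a replicate block and the omission of each library. Thinning to 23419198 counts and leaving out KO1+MK replicate 1 with KO2+MK replicate 3 were added after seeing the data. The fit was also run on simulated data, with results that are not reported here. Figures were drawn with Python 3.11.15, numpy 2.4.6, pandas 2.3.3 and matplotlib 3.10.9.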

Additional observations from a re-analysis of the deposited data

Results flagged for a closer look

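For 24 of the named genes reported here the change against WT differed by 1.5-fold or more between the treated pools. The test was that of KO1+MK against KO2+MK (edgeR's quasi-likelihood test, adjusted p of at most 0.001 over all genes tested). Values are KO1+MK minus KO2+MK on the log2 scale, so that a gene above 0 was higher in KO1+MK. Other named genes passed the same p with a smaller difference, UCA1 (-0.51), SLC30A1 (-0.51), MT1E (-0.35) and F3 (0.40) among them. Groups of 3 libraries are too small for the test of single outlying libraries.

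Most of the genes that differed by 1.5-fold or more were low in the knockout pools and lower in KO2+MK. SPINT1 (3.28), DHRS3 (2.73), CD74 (1.79), ELF3 (1.77), IL2RB (3.02) and ASB2 (2.18) were of this kind, as were PRDM9 (3.75), TLR2 (3.50) and DCAF8L2 (3.34), the cytokines IL1B (2.81) and IL1A (1.66), the interferon-stimulated BST2 (1.48) and the integrin ITGB3 (1.29). KO2+MK held few reads of several of them: TLR2 had 3, 10 and 10 counts, or 3.43% of the WT level (95% counting interval 2.16% to 5.18%), PRDM9 had 12, 4 and 3 counts (4.48%, interval 2.67% to 7.06%), IL2RB 3 in each library (3.05%, interval 1.38% to 5.85%) and ASB2 3, 6 and 4 (4.32%, interval 2.28% to 7.48%). CCND2 (0.72) and ASNS (0.69) differed in the same direction.

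Genes higher in KO2+MK were IL13RA2 (-6.03), TBX3 (-2.98), NGFR (-2.88), MAGEA3 (-1.67), ARC (-1.27), SESN3 (-0.91), FAM222A (-0.87), FGFR3 (-0.83) and ZNF114 (-0.74). KO1 and KO2 are separate pools that were made with different guides and selected separately, and the part of guide, selection and composition of a pool in these differences was not tested.

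The difference between the pools was no longer past the threshold in some fits that left out a library, for DHRS3 (adjusted p up to 0.00673, without KO2+MK replicate 3), FGFR3 (0.00548, without the same library), ASNS (0.00327, without KO2+MK replicate 2), ARC (0.00222, without KO1+MK replicate 2), ASB2 (0.00155, without KO1+MK replicate 3) and ELF3 (0.00144, without KO2+MK replicate 3). That of DHRS3 also missed it with DESeq2 (adjusted p = 0.00381), with DESeq2 size factors (0.00105), with a replicate block (0.00150), over protein-coding genes alone (0.00121) and with thinned libraries (0.00221). In a fit of only the libraries of both treated pools it was missed by ARC, DHRS3, CD74, ELF3, ASB2 and FGFR3 (adjusted p from 0.00164 to 0.00477). With both libraries that stood apart left out, CD74 (adjusted p = 0.00187), DHRS3 (0.0217), ELF3 (0.00540), ASB2 (0.00265) and FGFR3 (0.00649) missed it.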

How the results depend on the processing

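No WT cells with MK2206 were analysed here, the treated libraries were the shallowest, and counts per gene do not resolve strand or near-identical genes, which limits single genes named with that mark. Testing each gene against a fold of 1.5 with glmTreat moved every count: higher and lower genes were then 397 and 796 for the treated pools against WT, 213 and 402 for KO1+MK, 538 and 960 for KO2+MK, 228 and 703 for the untreated pools, 225 and 98 in the step from untreated to treated, and 90 and 21 between the treated pools. Protein-coding genes alone gave 285 lower genes in the step, by construction a smaller set. Between the pools, an adjusted p of 0.05 gave 443 and 207 genes, and a fit of only the libraries compared gave 179 higher in KO1+MK, the cause of which was not tested.

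With 1 library left out at a time, the treated pools had 1066 to 1218 higher and 1657 to 1809 lower genes than WT, KO1+MK 759 to 892 and 1232 to 1349, KO2+MK 1289 to 1487 and 1835 to 2056, and the untreated pools 718 to 842 and 1546 to 1680. The step held 659 to 833 and 407 to 470 genes, and the pools differed in 219 to 271 and 79 to 114. DESeq2 gave 1159 higher and 1780 lower genes for the treated pools against WT. Upper-quartile scaling gave 990 and 1988, so that 33.2% of called genes were higher, beside 39.9% with TMM.

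Same-numbered libraries did not deviate together (correlation of their deviations from the group means between -0.348 and 0.309 over 30 pairs, 7 of 15 libraries being closest to their own number). A replicate block gave 1176 higher and 1767 lower genes for the treated pools against WT. For the named genes in that comparison, no alternative turned a called direction, 29 values were no longer called and 2 became called. Here a call was by the adjusted p of the setting alone, without a minimum fold. Merging the pools into 1 group ended the calls of MAGEA3, DRP2, PRDM9, TLR2, DCAF8L2, IL13RA2, TBX3, NGFR, DDX10 and TNFSF10, in a fit where the difference between pools counts as spread. By adjusted p without a minimum fold, it also ended the calls of ELF3, UCA1, ZNF114, TBX3, CCNE2, DDX10 and VEGFA in the step from untreated to treated (adjusted p from 0.00333 to 0.355). By the same measure it ended those of MAGEA3, UNC5B, PRDM9, TLR2, DCAF8L2, IL13RA2, NGFR, DDX10, SESN3, TNFSF10, IRS2, PIK3R1, IDI1 and SESN1 in the untreated pools against WT (adjusted p from 0.00155 to 0.292).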
